A study of Mus musculus with 12 samples.

Results

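Linker histone H1 is represented here by 4 genes, Hist1h1c, Hist1h1d, Hist1h1e and H1f0, which were picked by symbol from the 31053 genes listed in 12 single-cell libraries of mouse brain myeloid cells. They were picked because Hist1h1c, Hist1h1d and Hist1h1e were known to be higher after enzymatic digestion without inhibitors, so their levels in that preparation are given as a description and are not tested. Whole brains of C57BL/6J males, taken at postnatal day 90, gave the cells, which were sorted for CD45 and CD11b, 1 animal per library and 3 animals per group. In the DNC-NONE group, brains were homogenized cold in a Dounce, and in the ENZ-NONE group they were digested with enzymes at warm temperature, in both cases with no inhibitors. The DNC-INHIB and ENZ-INHIB groups were prepared in the same 2 ways with a cocktail that blocks transcription (actinomycin D and triptolide) and translation (anisomycin). The comparisons ask which of the 4 genes were higher after the warm digestion, whether the cocktail went with lower levels, and whether the cells that held H1 transcripts were those that held activation transcripts or those in the cell cycle.

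Linker histones bind DNA where it enters and leaves the nucleosome and help to fold the chromatin fibre. Hist1h1c, Hist1h1d and Hist1h1e encode H1.2, H1.3 and H1.4, main-type variants whose genes lie in the large histone cluster and are classically transcribed most strongly during DNA replication, into messages that end in a conserved stem-loop in place of a poly(A) tail. H1f0 encodes H1.0, the replacement variant that accumulates in non-dividing and differentiated cells and whose message is polyadenylated outside the replication programme. Some cluster genes, Hist1h1c among them, are also known to give polyadenylated messages in cells that do not divide, and only polyadenylated or internally primed messages are captured by a poly(T) primer.

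The 4 genes are single-exon and protein coding. On GRCm38 (mm10), Hist1h1c (ENSMUSG00000036181) spans chr13:23738808-23740367 on the plus strand, Hist1h1d (ENSMUSG00000052565) chr13:23553262-23560686 on the plus strand, Hist1h1e (ENSMUSG00000051627) chr13:23620629-23622558 on the minus strand, and H1f0 (ENSMUSG00000096210) chr15:79028450-79030504 on the plus strand. The annotation of Hist1h1e overlaps Hist1h2be and Gm11398 on its own strand, so its counts are uncertain, and that of H1f0 overlaps Gm49544 on the other strand. All 4 were matched in RefSeq on GRCm38.p6, where they are named H1f2, H1f3, H1f4 and H1f0. The 250 bases before each RefSeq start are shown because 3 motifs are present in these windows of the cluster genes and absent in that of H1f0. Capitals mark 3 motifs. The H1 box was searched as AAACACA. The CCAAT box was searched under its own letters. The TATA box was searched as TATATA, with overlapping copies merged:
Hist1h1c (chr13:23738557-23738806, plus strand): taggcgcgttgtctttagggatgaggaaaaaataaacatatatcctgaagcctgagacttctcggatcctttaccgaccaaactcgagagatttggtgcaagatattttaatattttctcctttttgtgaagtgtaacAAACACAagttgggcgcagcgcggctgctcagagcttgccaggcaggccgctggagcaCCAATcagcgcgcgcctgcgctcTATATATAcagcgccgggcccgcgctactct
Hist1h1d (chr13:23554782-23555031, plus strand): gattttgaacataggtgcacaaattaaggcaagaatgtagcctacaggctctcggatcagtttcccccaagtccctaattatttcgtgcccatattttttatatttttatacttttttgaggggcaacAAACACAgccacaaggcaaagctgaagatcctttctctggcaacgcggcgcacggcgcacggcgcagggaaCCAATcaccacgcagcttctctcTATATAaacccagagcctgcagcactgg
Hist1h1e (chr13:23622559-23622808, minus strand): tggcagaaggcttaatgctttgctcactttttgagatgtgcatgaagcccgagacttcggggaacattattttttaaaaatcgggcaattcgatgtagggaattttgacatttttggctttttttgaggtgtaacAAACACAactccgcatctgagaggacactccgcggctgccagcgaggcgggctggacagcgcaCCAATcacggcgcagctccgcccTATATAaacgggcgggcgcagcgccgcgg
H1f0 (chr15:79027962-79028211, plus strand): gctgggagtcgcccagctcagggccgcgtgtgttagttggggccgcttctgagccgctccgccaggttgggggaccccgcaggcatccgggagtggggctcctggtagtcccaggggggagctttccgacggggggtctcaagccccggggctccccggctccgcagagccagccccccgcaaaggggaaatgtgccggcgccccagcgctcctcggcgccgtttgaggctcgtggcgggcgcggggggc
Each cluster gene held the 3 boxes in the same order at nearly the same places. The H1 box began 112, 122 and 115 bases before the RefSeq start of Hist1h1c, Hist1h1d and Hist1h1e. The CCAAT box began 54, 51 and 52 bases before it, and the TATA box 31, 28 and 29 bases before it. None of the 3 boxes was found in the H1f0 window. That window ended before the annotated start of H1f0 given above, and the stretch between them was not searched. The Hist1h1d window lay inside the annotated span of its gene. Hist1h1b and Hist1h1t, which had 7 and 1 UMIs in all libraries, also held all 3. Searched on both strands, the H1 box was present in 6.25%, the CCAAT box in 33.8% and the TATA box in 5.25% of 32851 promoters of the same length, and all 3 were present together in 60 (0.183%). An AP-1 site (TGANTCA), the sequence bound by Fos and Jun proteins and found in 6.75% of the promoters, was not found in any of the 4 windows. These are matches of letters and not measured binding.

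At the other end of the message, the 3 cluster genes carried an identical histone stem-loop of 16 bases, printed because it marks where the replication-type message ends:
Hist1h1c, Hist1h1d and Hist1h1e: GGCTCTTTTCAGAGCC
It began 27 bases after the end of the coding sequence in Hist1h1c (chr13:23739512-23739527), 34 bases after it in Hist1h1d (chr13:23555787-23555802) and 43 bases after it in Hist1h1e (chr13:23621782-23621797), and no such stem-loop was found in H1f0. The annotated transcripts ran on past the stem-loop by 840 bases in Hist1h1c, 4884 in Hist1h1d and 1153 in Hist1h1e. Poly(A) signals after the coding sequence numbered 2 in Hist1h1c, 12 in Hist1h1d, 0 in Hist1h1e and 3 in H1f0. Where along a transcript a molecule was captured is not given by the counts, so the share of molecules that ended past the stem-loop was not measured.

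The libraries held 28426 cells, of which 18827 (853 to 2185 per library) passed limits of 500 genes and 1000 unique molecular identifiers (UMIs, each standing for a captured molecule) as minimums and 10% mitochondrial UMIs as a maximum. Kept UMIs summed to 1059783 to 3233159 per library, with a median of 1153 to 1572 per cell. Between 98.0% and 99.4% of the cells of each library had UMIs of at least 3 of 8 microglia markers. Because a deeper cell shows a rare transcript more often, shares of positive cells are given after each cell was thinned to 1000 UMIs, unless stated. No cell type known to lack these genes was present, so the share of positive cells that free RNA alone gives was not measured. Intervals on shares are exact 95% Clopper-Pearson intervals and cover counting error only. The neutrophil markers summed to 756 and 2091 CPM (UMIs of a gene or list per 1000000 kept UMIs of the library) in DNC-NONE replicates 2 and 3 and to at most 266 in the other libraries, and their part in the results was not tested. The 12 libraries shared 236 barcodes in all, at most 12 between a pair.

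Hist1h1c, the most abundant main-type gene by UMIs, was higher in every ENZ-NONE library than in any other library. Its level was 189.6, 210.2 and 233 CPM in ENZ-NONE replicates 4, 5 and 6. The DNC-NONE libraries had 42.8, 42.5 and 55.5, the DNC-INHIB libraries 53.7, 50.2 and 50.4, and the ENZ-INHIB libraries 33.9, 29.8 and 48.3. The lowest ENZ-NONE library thus lay above the highest of the other 9, and the other groups lay close together. The group means were 211 ± 21.7 (SD, n = 3) in ENZ-NONE, 51.4 ± 2.00 for DNC-INHIB, 46.9 ± 7.43 for DNC-NONE and 37.3 ± 9.74 for ENZ-INHIB. Neighbours in that order below ENZ-NONE differed by less than the larger of their SDs. DNC-INHIB and ENZ-INHIB, which are not neighbours, differed by more than either SD, and their libraries did not overlap. Summed over each group, ENZ-NONE had 1372 UMIs. DNC-NONE had 252, DNC-INHIB had 408 and ENZ-INHIB had 266, which at equal depth is a ratio of 4.53, 4.16 and 5.66. By value, the same contrast was seen in both batches named in the labels. ENZ-NONE had 199.9 in batch 1 (mean of 2 libraries) and 233 in batch 2 (1 library). The other groups had 33.9 to 53.7 in batch 1 and 39.1 to 55.5 in batch 2. Each group had only 1 library in 1 of the 2 batches.

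The higher Hist1h1c level came with more positive cells and with more molecules per positive cell. Cells with a Hist1h1c UMI made up 12.6%, 14.1% and 15.0% of the ENZ-NONE libraries (13.9% ± 1.23, SD, n = 3). The share was 4.52% ± 1.14 for DNC-NONE, 4.82% ± 0.106 for DNC-INHIB and 3.68% ± 0.650 for ENZ-INHIB. Without thinning, 37.5% of the Hist1h1c-positive cells in ENZ-NONE held at least 2 of its UMIs, and single cells held up to 9. For the other groups, DNC-NONE first, then DNC-INHIB, then ENZ-INHIB, that percentage was 2.87%, 7.67% and 6.85%, and no cell held more than 3. The mean number of Hist1h1c UMIs per positive cell was accordingly 1.76 in ENZ-NONE and 1.03 to 1.08 elsewhere.

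**Figure D1:**
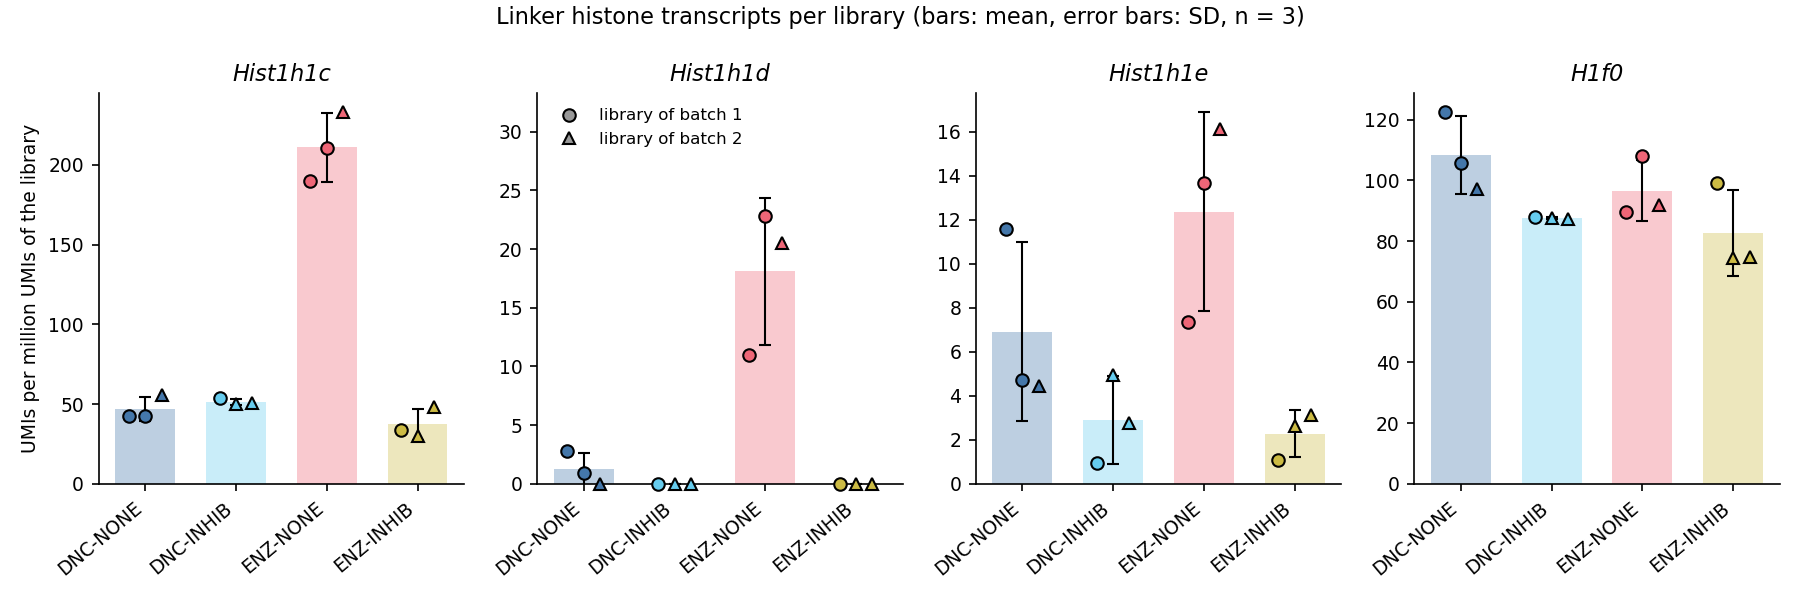
Level of each linker histone gene in CPM (y axis, a separate scale from 0 for each gene) by preparation (x axis). Points are libraries with the marker giving the batch, bars are means and error bars SDs over 3 libraries; Hist1h1c and Hist1h1d in ENZ-NONE lie above all other libraries, Hist1h1e overlaps with DNC-NONE, and H1f0 overlaps between ENZ-NONE and each of the other groups except DNC-INHIB, whose libraries lie between 87.2 and 88.0.

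Hist1h1d, the gene of H1.3, gave almost no UMIs outside ENZ-NONE. It had 24, 35 and 56 UMIs in the ENZ-NONE libraries, or 11.0, 22.8 and 20.5 CPM (18.1 ± 6.24, SD, n = 3). In the 9 other libraries it had 7 UMIs in DNC-NONE replicate 1, 1 UMI in DNC-NONE replicate 2 and 0 in the remaining 7. Both groups prepared with inhibitors were therefore at 0, which with a floor of 3 counts over the group puts ENZ-NONE at least 47.4-fold higher than DNC-INHIB and at least 42.1-fold higher than ENZ-INHIB. Against the 8 UMIs of DNC-NONE, the ratio at equal depth was 12.0. The share of positive cells was 0.955%, 2.06% and 1.83% in the ENZ-NONE libraries. In DNC-INHIB and ENZ-INHIB it was 0 in every library, which at a limit of 3 counts per library allows a share of up to 0.137% to 0.221% depending on the library. The filter on low counts was passed by Hist1h1d through its ENZ-NONE counts alone.

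Hist1h1e, the gene of H1.4, was rarer than Hist1h1c and was found in all 12 libraries, with overlapping groups. It had 16, 21 and 44 UMIs in ENZ-NONE (7.35, 13.7 and 16.1 CPM) and 29, 5 and 8 in DNC-NONE (11.6, 4.72 and 4.44 CPM). In DNC-INHIB it had 2, 13 and 9 UMIs (0.951, 4.94 and 2.78 CPM) and in ENZ-INHIB 2, 7 and 8 (1.08, 2.64 and 3.12 CPM). DNC-NONE replicate 1 was thus above the lowest ENZ-NONE library, whereas every ENZ-NONE library lay above all 6 libraries with inhibitors. At equal depth, ENZ-NONE had 1.60 times the Hist1h1e UMIs of DNC-NONE, 4.17 times those of DNC-INHIB and 5.23 times those of ENZ-INHIB. DNC-NONE replicate 1 held 29 of the 42 Hist1h1e UMIs and 7 of the 8 Hist1h1d UMIs of its group. It was also the library outside ENZ-NONE with the most Fos (37.2 CPM, against at most 4.15 in the other 8) and the most Jun (726 CPM, against 138 to 222), while its Hist1h1c level of 42.8 CPM was within the range of the other cold preparations.

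H1f0, the replacement variant, was highest by value in DNC-NONE. The DNC-NONE libraries had 122, 106 and 97.1 CPM, the DNC-INHIB libraries 88.0, 87.4 and 87.2, the ENZ-NONE libraries 89.5, 108 and 91.9, and the ENZ-INHIB libraries 99.1, 74.3 and 74.8. The group means ran from 108 ± 12.9 (SD, n = 3) in DNC-NONE through 96.5 ± 10.1 in ENZ-NONE and 87.5 ± 0.402 in DNC-INHIB to 82.7 ± 14.2 in ENZ-INHIB. Each neighbour in that order differed by less than the larger SD of the pair. The DNC-NONE mean lay above those of DNC-INHIB and ENZ-INHIB by more than either SD. Its libraries did not overlap with those of DNC-INHIB but did with those of ENZ-INHIB. Positive cells made up 8.68% to 10.1% of the DNC-NONE libraries, 7.45% to 9.38% of ENZ-NONE, 7.55% to 7.84% of DNC-INHIB and 6.17% to 9.04% of ENZ-INHIB. The ratio of ENZ-NONE to the other groups was 0.858 for DNC-NONE, 1.09 for DNC-INHIB and 1.17 for ENZ-INHIB. At least 1 of the 4 transcripts was seen in 20.3%, 23.9% and 23.7% of the cells of the ENZ-NONE libraries and in 9.98% to 14.9% of those of the other 9.

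**Figure D2:**
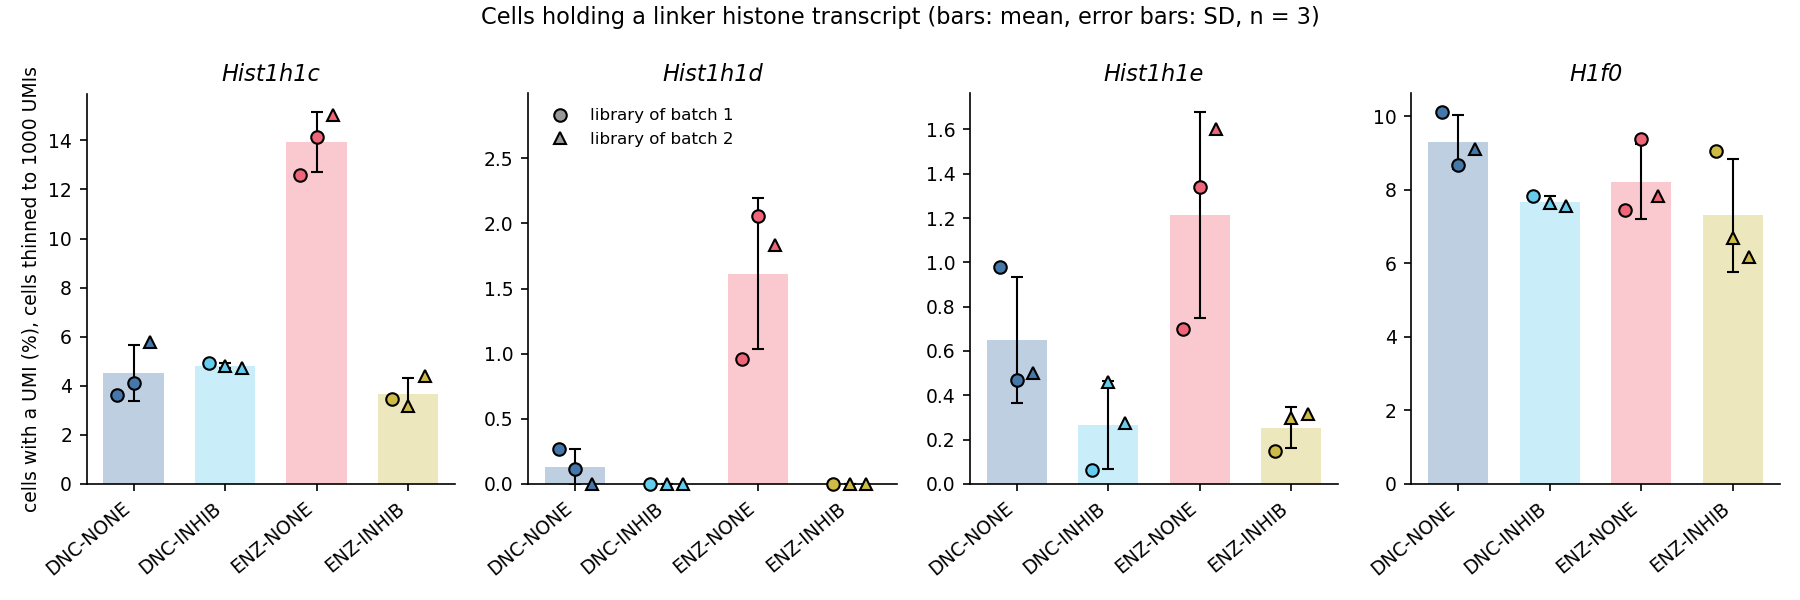
Percentage of cells with at least 1 UMI of each linker histone gene (y axis, cells thinned to 1000 UMIs, a separate scale from 0 for each gene) by preparation (x axis). Points are libraries with the marker giving the batch, bars are means and error bars SDs over 3 libraries; the Hist1h1c share was 12.6% to 15.0% in ENZ-NONE and 3.17% to 5.80% elsewhere, while H1f0 shares were 6.17% to 10.1% in all 12 libraries.

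Fold changes from edgeR on the summed counts of each library put numbers to these differences, with a call made at an adjusted p under 0.05 and an absolute log2 fold change over 0.58. The log2 fold change of Hist1h1c in ENZ-NONE was 2.21 (SE 0.14) over DNC-NONE, 2.08 (SE 0.11) over DNC-INHIB and 2.53 (SE 0.16) over ENZ-INHIB. In the same order, that of Hist1h1e was 0.76 (SE 0.41), 2.08 (SE 0.43) and 2.40 (SE 0.42), and that of H1f0 was -0.14 (SE 0.12), 0.17 (SE 0.10) and 0.26 (SE 0.12). For Hist1h1d a value is given against DNC-NONE only, 3.59 (SE 0.55). Without DNC-NONE replicate 1, the value of Hist1h1e against DNC-NONE was 1.49, and DNC-NONE held 1 UMI of Hist1h1d, which gives a ratio at equal depth of 51.1 with a 95% counting interval from 8.98 to 2034. Both differences were larger by value without this library. The interval for Hist1h1d includes the ratio of 12.0 over all libraries. For Hist1h1e the ratio without the library was 2.77 (1.53 to 5.42), and this interval includes the ratio of 1.60 over all libraries. The counts therefore do not settle how far either size depended on this library. The thresholds were passed by 2, 3 and 3 of the 4 genes in these comparisons, where 0.405%, 0.799% and 0.344% of the 9882 genes tested passed them; since the genes were chosen on these contrasts, nothing is read from that.

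The 3 remaining pairs of groups did not choose the genes and could be tested for Hist1h1c, Hist1h1e and H1f0. Hist1h1d is left out of these tests, since it had 8 UMIs in DNC-NONE, 7 of them in replicate 1, and 0 in both groups with inhibitors. None of the 3 was called in DNC-NONE against DNC-INHIB, where 0.0304% of the genes tested were called, in ENZ-INHIB against DNC-INHIB (0.354%) or in ENZ-INHIB against DNC-NONE (0.314%). DESeq2 likewise called 0 of the 3 in each, and an unadjusted p under 0.05 in edgeR was reached by 2, 1 and 2 of them. Between the cold preparations, Hist1h1c had a log2 fold change of -0.13 (SE 0.13, edgeR adjusted p 0.999) in DNC-NONE over DNC-INHIB, Hist1h1e 1.32 (SE 0.49, adjusted p 0.808) and H1f0 0.32 (SE 0.11, adjusted p 0.743). With inhibitors present in both, the warm preparation had less Hist1h1c than the cold one by value, with a log2 fold change of -0.44 (SE 0.15, edgeR adjusted p 0.271), while Hist1h1e (-0.32, SE 0.57) and H1f0 (-0.09, SE 0.11) had smaller values. In ENZ-INHIB against DNC-NONE, the values were -0.32 (SE 0.18) for Hist1h1c, -0.40 (SE 0.13) for H1f0 and -1.63 (SE 0.49, edgeR adjusted p 0.217) for Hist1h1e. The last of these was called in 1 of 14 alternatives, with no filter on low counts (adjusted p 0.0250), and its adjusted p ran up to 0.740 in the others.

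Shares of positive cells were compared between the same groups by exact two-sided permutation over libraries, for which 3 against 3 cannot give a p below 0.1. Hist1h1c-positive cells were 1.14 percentage points fewer in ENZ-INHIB than in DNC-INHIB, and the libraries of these groups did not overlap (exact p = 0.1). Hist1h1e-positive cells were more frequent in DNC-NONE than in DNC-INHIB by 0.383 points and than in ENZ-INHIB by 0.396 points, again without overlap (exact p = 0.1 each). H1f0-positive cells were 1.62 points more frequent in DNC-NONE than in DNC-INHIB without overlap (exact p = 0.1). The other comparisons of shares of these 3 genes gave exact p of 0.2 to 1, and no comparison could pass the threshold in this design. Nothing is read from Hist1h1d here. Its share was 0 in both groups with inhibitors, which fixed the outcome of comparing them in advance.

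**Figure D3:**
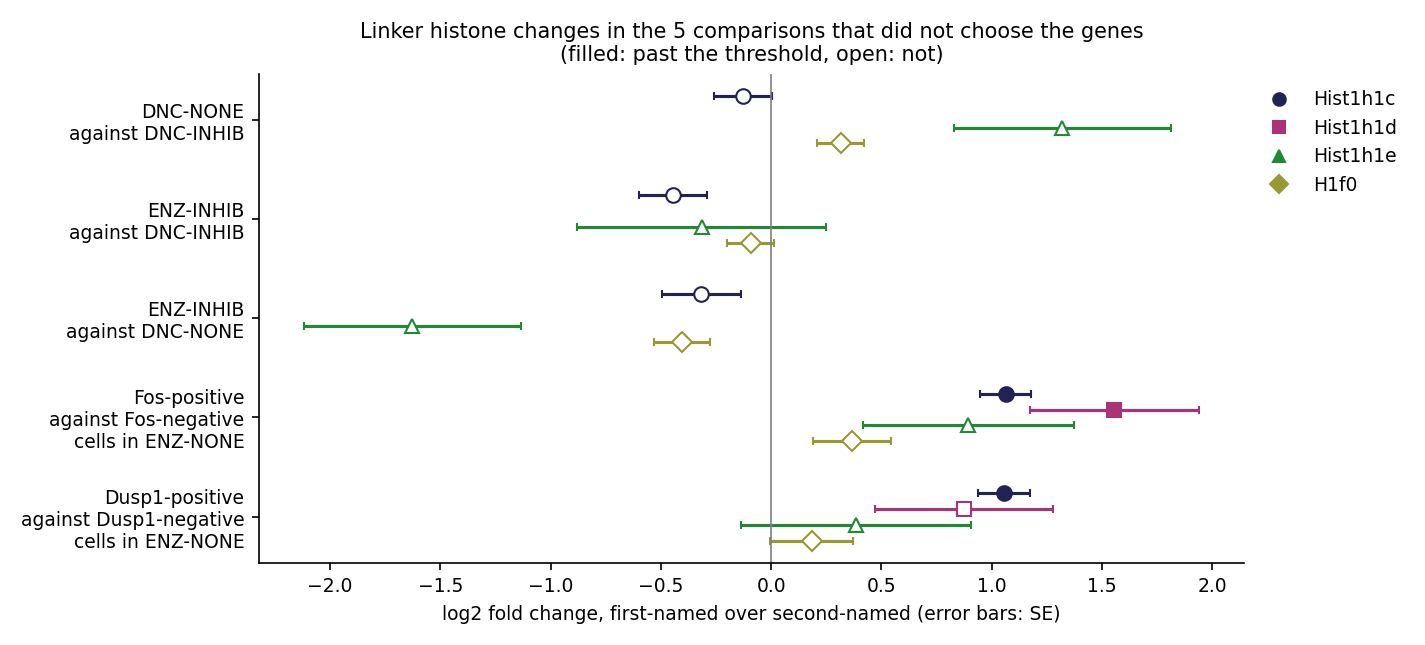
Log2 fold change of each linker histone gene (x axis, error bars SE) in the 3 comparisons of groups and the 2 comparisons of cells within ENZ-NONE that did not choose the genes (y axis). Filled symbols were called and open ones were not, and Hist1h1d is left out where a group had no UMI. Only Hist1h1c (1.06 in both cell comparisons) and Hist1h1d (1.56, Fos comparison, a description only) were called.

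The next question was whether the ENZ-NONE cells with H1 transcripts were those with activation transcripts. Fos encodes a subunit of the AP-1 transcription factor and Dusp1 a phosphatase that switches off MAP kinases, and both are immediate early genes, transcribed within minutes of a stimulus. They were highest in the ENZ-NONE libraries, with 411, 392 and 1753 CPM of Fos and 354, 376 and 1203 CPM of Dusp1 in replicates 4, 5 and 6. Hist1h1c-positive cells made up 20.4% of the cells with a Fos UMI and 11.4% of those without in replicate 4. They made up 21.6% against 12.8% in replicate 5 and 21.6% against 11.0% in replicate 6. The shares in Fos-positive cells were thus alike in the 3 libraries although Fos itself was several times higher in replicate 6. Split by Dusp1, Hist1h1c was seen in 31 of 177 Dusp1-positive and 167 of 1393 Dusp1-negative cells in replicate 4, 33 of 157 Dusp1-positive and 125 of 962 Dusp1-negative cells in replicate 5, and 116 of 516 Dusp1-positive and 147 of 1232 Dusp1-negative cells in replicate 6, and its share was higher in the positive cells of each library. Read the other way, 21.2%, 22.8% and 54.8% of Hist1h1c-positive cells held Fos, against 12.0%, 13.6% and 35.2% of Hist1h1c-negative cells.

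In the counts summed over the 2 kinds of cells in each library, edgeR with the library as a block called 2 of the 4 genes in the Fos comparison, where 1.27% of 7405 genes tested were called, and 1 of the 4 in the Dusp1 comparison, where 1.21% of 7208 were called. Hist1h1c rose in Fos-positive cells by a log2 fold change of 1.06 (SE 0.11, edgeR adjusted p 2.79e-09) and in Dusp1-positive cells by 1.06 (SE 0.12, adjusted p 1.99e-08). It was called in all 8 alternatives of each comparison, with adjusted p up to 0.0341 for Fos and 0.000437 for Dusp1. Hist1h1d rose in Fos-positive cells by 1.56 (SE 0.38, edgeR adjusted p 0.0157), with 3, 8 and 20 positive cells of 206, 167 and 667 Fos-positive cells. Among 1364, 952 and 1081 Fos-negative cells, 12, 15 and 12 held it. The gene passed the filter on low counts mostly through its Fos-positive cells, so its call is a description only. That call was kept in 5 of 8 alternatives and was lost in DESeq2 (adjusted p 0.694), without replicate 5 (0.0776) and without replicate 6 (0.727), over a range of adjusted p from 0.000715 to 0.727. In Dusp1-positive cells Hist1h1d had a log2 fold change of 0.87 (SE 0.40, edgeR adjusted p 0.597). Hist1h1e was not called, with values of 0.89 (SE 0.48, edgeR adjusted p 0.704) for Fos and 0.39 (SE 0.52, adjusted p 0.942) for Dusp1. H1f0 was not called either, with 0.37 (SE 0.18, edgeR adjusted p 0.613) and 0.18 (SE 0.19, adjusted p 0.909). Its share was 6.80%, 10.8% and 8.70% of Fos-positive cells against 7.55%, 9.14% and 7.31% of Fos-negative cells in replicates 4, 5 and 6.

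Outside ENZ-NONE, DNC-NONE replicate 1 was the library with at least 30 Fos-positive cells. Among its 54 Fos-positive cells, 1 held Hist1h1c (1.85%), against 66 of 1785 Fos-negative cells (3.70%). Over these 4 libraries the share in Fos-positive cells was higher by 6.61 points ± 5.69 (SD, n = 4), in 3 of 4 libraries, with an exact two-sided sign-flip p of 0.25 where the smallest possible is 0.125. Without DNC-NONE replicate 1 the mean difference was 9.42 points over 3 libraries (exact p = 0.25, the smallest possible). For Dusp1, the 3 ENZ-NONE libraries qualified, and the difference was 8.03 points ± 2.51 (SD, n = 3, exact p = 0.25, the smallest possible), higher in 3 of 3.

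**Figure D4:**
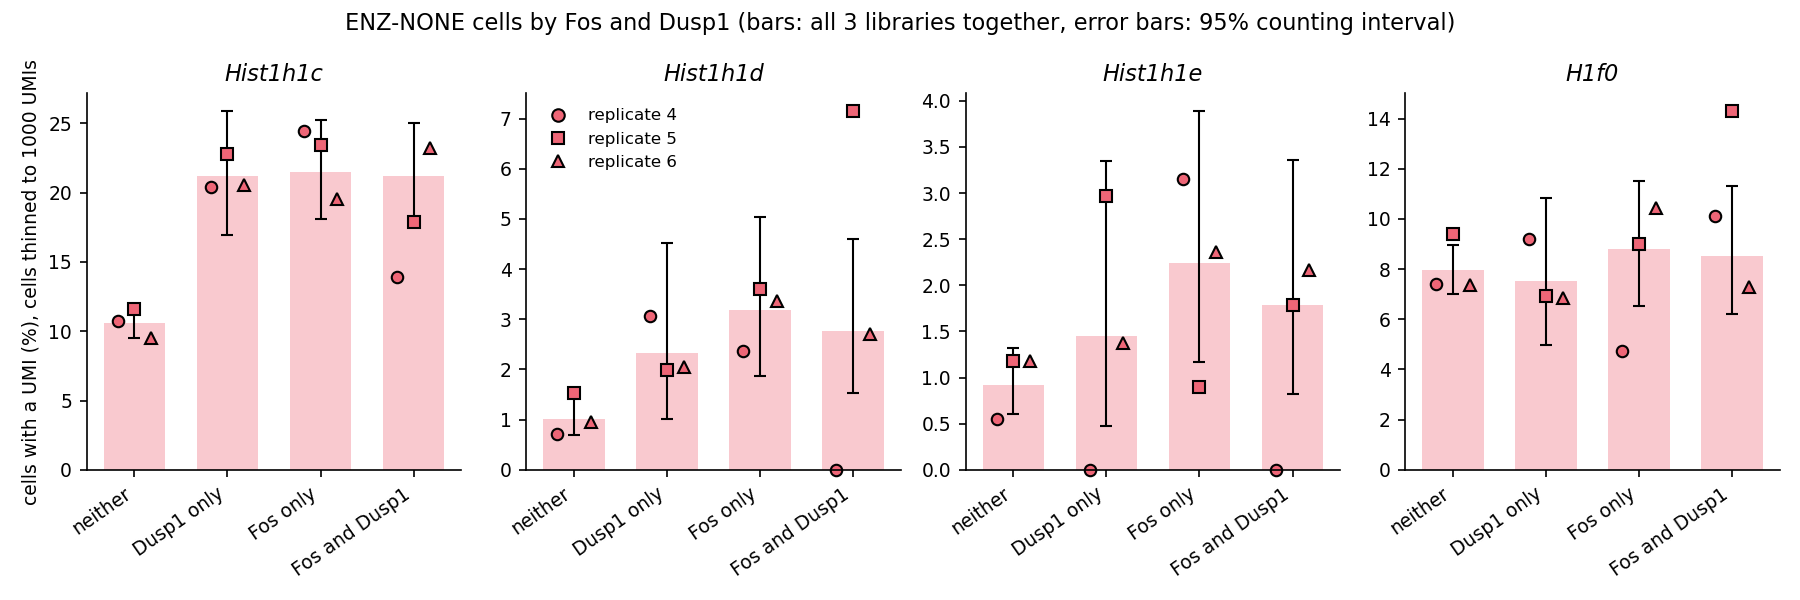
Percentage of ENZ-NONE cells with at least 1 UMI of each linker histone gene (y axis, cells thinned to 1000 UMIs, a separate scale from 0 for each gene) in cells with neither Fos nor Dusp1, with 1 of them, or with both (x axis). Bars pool the 3 libraries with 95% counting intervals and points are libraries; the pooled Hist1h1c share was 10.6% with neither transcript and 21.2% to 21.5% in the other 3 classes, whose order differed between libraries.

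Cells with Dusp1 only, with Fos only and with both held Hist1h1c in 20.4%, 24.4% and 13.9% of cells in replicate 4, in 22.8%, 23.4% and 17.9% in replicate 5 and in 20.5%, 19.5% and 23.2% in replicate 6. Cells with both thus had the lowest share of the 3 classes in replicates 4 and 5 and the highest in replicate 6, which gave 370 of the 505 cells with both. Pooled over the 3 libraries, the share was 21.2%, 21.5% and 21.2% in these classes and 10.6% in the 3052 cells with neither transcript. Even the cells with neither were Hist1h1c-positive more often than such cells of the other groups: the share was 10.6% ± 1.06 (SD, n = 3) in ENZ-NONE, 4.77% ± 0.195 in DNC-INHIB, 4.52% ± 1.14 in DNC-NONE and 3.70% ± 0.648 in ENZ-INHIB, and the lowest ENZ-NONE library (9.52%) lay above the highest of the others (5.83%). Hist1h1d was seen in 1.07% ± 0.418 of the ENZ-NONE cells with neither transcript. Cells that truly lacked Fos and Dusp1 and cells in which these were missed at 1000 UMIs cannot be told apart. By the number of Fos UMIs in a cell, Hist1h1c was seen over the 3 libraries in 11.7% of cells with 0 Fos UMIs, 15.7% with 1, 23.0% with 2 to 4 and 25.0% (95% interval 20.3% to 30.2%) with 5 or more. The stepwise order was that of replicate 6, which gave 244 of the 308 cells of the last class and had shares of 11.0%, 12.1%, 23.7% and 26.2%. In replicate 4 they were 11.4%, 18.9%, 22.0% and 19.5%, and in replicate 5 they were 12.8%, 21.1%, 21.9% and 21.7%. The last class held 41 cells in replicate 4 (95% interval 8.82% to 34.9%) and 23 in replicate 5 (7.46% to 43.7%). These were too few to show whether the share rose past 2 to 4 Fos UMIs in either.

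Jun, the partner of Fos in AP-1, was detected in enough cells of every library to make the same split in all 12, with at least 163 cells of each kind. This split was chosen after its values were seen and carries no test. In ENZ-NONE, Hist1h1c-positive cells made up 17.8%, 18.4% and 18.5% of the Jun-positive cells and 7.50%, 8.80% and 6.78% of the Jun-negative cells, a difference of 10.5 points ± 1.08 (SD, n = 3). In the other 9 libraries the shares were 4.35% ± 0.864 and 4.36% ± 0.827, and the difference ran from -0.784 to 0.621 points around a mean of -0.0102. DNC-NONE replicate 1, in which 823 of 1839 cells held Jun, had Hist1h1c in 3.28% of those and in 3.94% of the rest. Jun-positive cells were thus richer in Hist1h1c in the 3 ENZ-NONE libraries while the sign of the difference varied among the other 9. Without thinning, the mean differences were 12.2 points in ENZ-NONE and 0.840 points (from -1.19 to 3.47) in the other 9 libraries. The part of cell depth in these values was not tested.

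**Figure D5:**
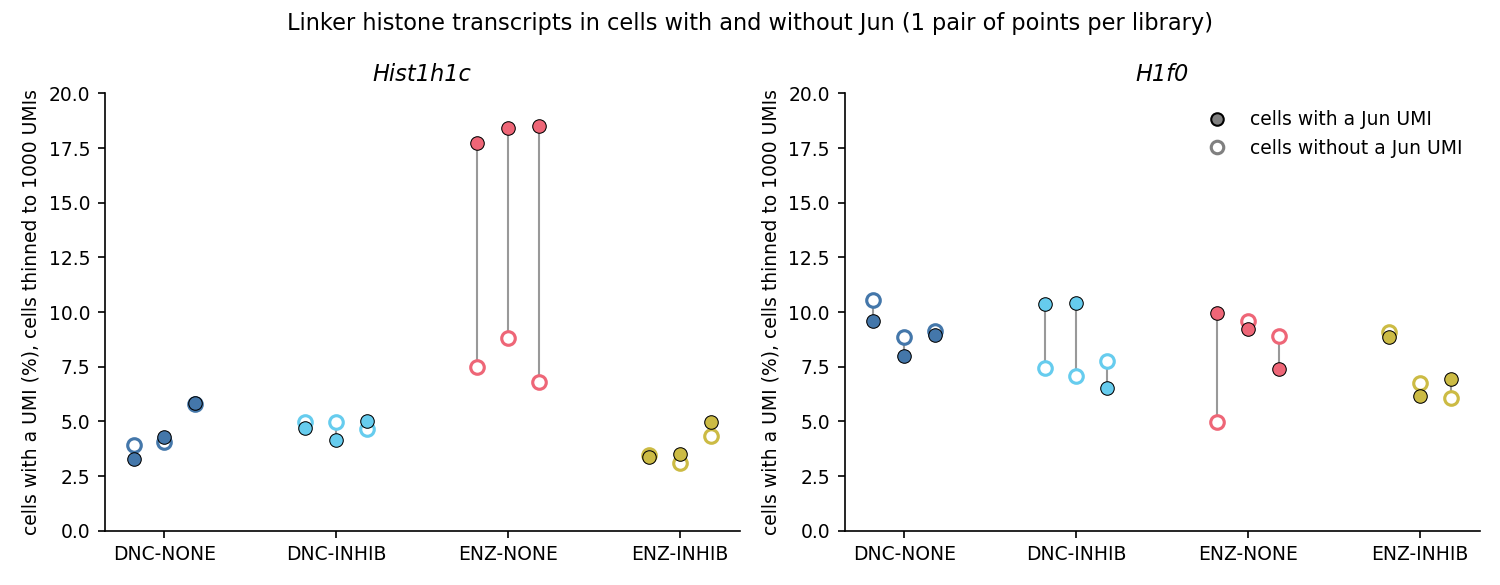
Percentage of cells with a Hist1h1c UMI (left) or an H1f0 UMI (right) among cells with a Jun UMI (filled) and without (open) in each library (y axis, cells thinned to 1000 UMIs), grouped by preparation (x axis) with replicates from left to right. For Hist1h1c the filled and open points are 9.62 to 11.7 points apart in the 3 ENZ-NONE libraries and within 0.784 points of each other in the other 9, and for H1f0 they cross in both directions.

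Hist1h1d also differed between the Jun classes. In ENZ-NONE it was seen in 2.48% ± 0.723 (SD, n = 3) of Jun-positive cells and 0.372% ± 0.237 of Jun-negative cells, with 1.66 to 2.63 points between them. Hist1h1e was seen in 1.62% ± 0.421 and 0.610% ± 0.308. Outside ENZ-NONE, its share was higher in the Jun-positive cells of 5 of 9 libraries. These included all 3 of DNC-NONE (means of 1.03% against 0.538%) and 1 of 3 in each group with inhibitors. Without thinning, it was higher in 3 of the 9, among them 2 of DNC-NONE. In ENZ-NONE, H1f0 was seen in 8.85% ± 1.32 and 7.82% ± 2.51, with differences from -1.53 to 5.01 points, so it had no common direction.

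Detection of the 4 genes in the same ENZ-NONE cells was also compared. Hist1h1d was seen in 4.20% of the 619 Hist1h1c-positive cells and in 1.15% of the Hist1h1c-negative cells, and 26 of the 70 Hist1h1d-positive cells held Hist1h1c. Hist1h1e was seen in 1.78% and 1.13% of these cells, and H1f0 in 8.40% and 8.04%. Of the 70 Hist1h1d-positive cells 1 held Hist1h1e (1.43%), against 1.21% of the Hist1h1d-negative cells. These values pool cells of 3 libraries and are a description.

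Since main-type H1 genes are classically linked to replication, the share of positive cells was also taken in cycling cells. Cells with UMIs of at least 2 of 20 cycling genes numbered 46, of which 19 were from DNC-NONE, 16 from DNC-INHIB, 6 from ENZ-NONE and 5 from ENZ-INHIB; 348 further cells had UMIs of 1 such gene and were counted with the rest. The summed UMIs of the 8 microglia markers had a median of 50 in the 46 cells and 51 in the others, and all UMIs a median of 2311 against 1337. Hist1h1c was seen in 3 of them, 6.52% (95% interval 1.37% to 17.9%), and in 6.61% of the other cells. Cycling cells made up 0.241% of the 1245 Hist1h1c-positive cells and 0.244% of all cells. These pooled values mix preparations, since most cycling cells lay outside ENZ-NONE. There, Hist1h1c was seen in 3 of 40 cycling cells, 7.50% (1.57% to 20.4%), and in 4.34% of the others. Cycling cells were 0.479% of the Hist1h1c-positive cells there and 0.278% of all cells. In ENZ-NONE they were 0 of the 619 Hist1h1c-positive cells, but 0 of only 6 cycling cells allows a share of up to 45.9%. Hist1h1d and Hist1h1e were each seen in 0 of the 46 cells, which at a limit of 3 counts allows a share of up to 6.52%. Without thinning each was seen in 1 of the 46 (2.17%), against 0.548% and 0.852% of the other cells. H1f0 was seen in 10 of the 46, 21.7% (10.9% to 36.4%), against 8.01% (7.62% to 8.41%) of the other cells. Cells were too few per library to compare over libraries, and outside ENZ-NONE the H1f0 shares were 25.0% (12.7% to 41.2%) and 7.98%.

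The 7 other linker histone genes gave few or no UMIs. Messages that are neither polyadenylated nor internally primed are not captured, so this does not show that the genes were silent. Over all 12 libraries Hist1h1a (H1.1) had 4 UMIs, Hist1h1b (H1.5) 7, the testis gene Hist1h1t 1 and H1fx (H1.10) 10, while the oocyte gene H1foo and the testis genes H1fnt and Hils1 had 0, and none passed the filter on low counts. Without thinning, all 7 UMIs of Hist1h1b lay in 6 of the 46 cycling cells, and 0 of the 18781 other cells held it. The 4 UMIs of Hist1h1a were all in ENZ-NONE. In 140 cells with at least 3 of 6 border macrophage markers (63 further cells had 1 marker fewer), Hist1h1c was seen in 7 (95% interval 2.03% to 10.0%) and H1f0 in 11.4%.

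Genes whose products load, displace or compete with H1 were listed as the neighbours of the H1 genes in function. The list held histone chaperones (such as Nap1l1, Set and Npm1) and chromatin proteins that compete with H1 (such as Hmgb1 and Hmgn1), and 13 of 13 were tested in the group comparisons. edgeR and DESeq2 each called 0 of them in all 8 comparisons, where at most 1.27% of all genes tested were called by edgeR, so nothing is read from the 0, with 0 to 2 at an unadjusted p under 0.05, and median log2 fold changes of -0.09 to 0.08. Ptma, the gene of prothymosin alpha, had an edgeR adjusted p of 0.0234 in the Fos and 0.00203 in the Dusp1 comparison, with log2 fold changes of 0.33 and 0.41 that were below the threshold of size. Genes of histone message production, such as Slbp, whose product binds the stem-loop, and Npat, a coactivator of histone transcription, gave 0 called of 14 tested in the group comparisons and of 11 in the cell comparisons by both tools, with 0 at an unadjusted p under 0.05. Of 11 activation genes, 9, 11 and 11 were called higher in the ENZ-NONE libraries than in those of DNC-NONE, of DNC-INHIB and of ENZ-INHIB and 0 in the other 3 group comparisons, where 6, 2 and 7 had an unadjusted p under 0.05 in edgeR. DESeq2 called 8, 11 and 11 in the first and 0 in the second. The list was chosen with these contrasts known, in which 0.405%, 0.799% and 0.344% of all genes were called, so its calls describe the preparations and are no finding about them. All 10 that could be tested were called higher in Fos-positive and in Dusp1-positive cells. Of all genes tested in these 2 comparisons, 1.27% and 1.21% were called. Nothing is read from these calls either, since the list was chosen with activation in ENZ-NONE known.

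The genes whose level followed each member most closely over the 12 libraries were found by Pearson's r of log2(CPM + 1), given as a description, since the libraries share their preparations. For Hist1h1c they were Hist1h2bc (r = 0.972), a core histone gene of the same cluster, the heat shock gene Hspa1b (0.956), the chemokine gene Ccl3 (0.949), Jund (0.943) and Hsp90aa1 (0.942). For Hist1h1d they were the AP-1 genes Jun (0.981), Jund (0.978), Fosb (0.964) and Junb (0.960) and the mRNA decay gene Zfp36 (0.959). For Hist1h1e they were Adamts1 (0.867), the core histone genes Hist1h3d (0.858) and Hist1h2ac (0.854), Fosb (0.850) and Jun (0.843). For H1f0 they were Sept9 (0.895), Wdpcp (0.866), Rbm15 (0.853), Katnal1 (0.841) and Sec24d (0.834), none of them a histone or activation gene.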

How the data were processed

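Libraries were prepared with the 10X Genomics 3′ version 2 kit from 12 animals in 4 groups of 3, taken from the labels. Per the labels and the study's methods, the authors processed reads with bcl2fastq and Cell Ranger 3.0.0 against mm10. The deposited values are raw UMI counts per gene and cell barcode, with no normalization. Reads that fit more than 1 gene are not counted, so counts of near-identical histone genes can be too low.

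Cells with fewer than 500 genes, fewer than 1000 UMIs or more than 10% mitochondrial UMIs were left out. A rule on markers of other tissues removed 3 likely doublets (0.0159%), so most doublets were left in. Counts were summed per library (1059783 to 3233159 UMIs) and tested with edgeR 4.0.16 (TMM, filterByExpr, quasi-likelihood test, Benjamini-Hochberg adjustment over all genes tested), with calls at an adjusted p under 0.05 and an absolute log2 fold change over 0.58. For the Fos and Dusp1 comparisons, cells were thinned to 1000 UMIs and summed per library with and without a UMI, with the library as a block. Shares were compared by exact tests over libraries in SciPy 1.17.1. The fits were tested on simulated data.

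The members and lists were chosen with earlier results of these data known. Named genes are the members, the other linker histone genes, called genes of the chaperone and histone message lists, Fos, Dusp1 and Jun, and the 5 genes most like each member; genes named as examples of a list were added. Alternatives were DESeq2 1.42.0, RLE normalization, no filter on low counts, batch as a term, all libraries in 1 fit, all deposited barcodes, other thinning, a replicate block and leaving out each library. Replicates of a group differed by more than sampling noise (chi-square per degree of freedom 1.60 to 6.50).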

Additional observations from a re-analysis of the deposited data

How the results depend on the processing

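Of the log2 fold changes of the 4 genes under the alternatives, 308 counted as unchanged, 4 moved further, 3 lost a call, 1 gained a call and 1 reversed. For ENZ-NONE against another group, unchanged meant the same direction and a move below a limit somewhat larger than the SE, with calls not compared. In the other comparisons it meant the same direction and the same side of the threshold. The reversal was that of Hist1h1e in ENZ-INHIB against DNC-INHIB, which was -0.65 to 0.23 when a library was left out and 0.23 without DNC-INHIB replicate 5; it was not called under any of the 13 alternatives. Depth limits Hist1h1d and Hist1h1e, which had 0 to 56 UMIs per library, and leaving out DNC-NONE replicate 1 moved both against DNC-NONE.

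Shares of Hist1h1c-positive cells depend on depth by construction. Without thinning they were 5.89% in DNC-NONE, 6.68% in DNC-INHIB, 17.5% in ENZ-NONE and 5.34% in ENZ-INHIB, and with cells of at least 500 UMIs thinned to 500 they were 2.59%, 2.60%, 7.73% and 1.71%, with ENZ-NONE highest each time. Another random seed gave 4.95% in DNC-INHIB. The share of cycling cells with H1f0 was 41.3% without thinning.

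The number of genes called over the whole table moved more than the 4 genes did, and the cause was not tested beyond the alternative's own construction. For ENZ-NONE against DNC-NONE (40), it was 203 with no low-count filter, 61 with all 12 libraries in 1 fit and 11 to 76 without a library. Against DNC-INHIB (79) it was 222 with no filter, 155 with batch as a term and 44 to 117 without a library, and against ENZ-INHIB (34) it was 141, 76 and 16 to 46. For DNC-NONE against DNC-INHIB (3) it was 87 with no filter, 0 with all 12 libraries in 1 fit, 0 with all deposited barcodes and 0 to 25 without a library. For ENZ-INHIB against DNC-INHIB (35) it was 21 in DESeq2, 113 with no filter, 72 with batch as a term, 15 with all 12 libraries in 1 fit, 56 with all barcodes and 12 to 71 without a library. For ENZ-INHIB against DNC-NONE (31) it was 208, 10 and 17 with no filter, with all 12 libraries and with all barcodes, 8 with thinned cells and 0 to 67 without a library. The Fos comparison (94) gave 58 in DESeq2 and 45 to 100 without a library, and the Dusp1 comparison (87) gave 46 in DESeq2.

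Replicate numbers in the labels were shared by ENZ-NONE and DNC-INHIB and by ENZ-INHIB and DNC-NONE. Deviations of same-numbered libraries from their group means correlated at -0.08 to 0.16, and those of differently numbered libraries at -0.146 to 0.0865. Every library came from a different animal, so a shared number does not mark a shared animal. The numbers ran on from DNC-NONE to ENZ-NONE and from ENZ-INHIB to DNC-INHIB. Some same-numbered libraries also shared a batch, and with so few libraries these values cannot decide whether they were handled together. A replicate block, which uses the number alone and stands for no pairing of animals, changed the call of no linker histone gene. It moved the count of calls from 79 to 100 for ENZ-NONE against DNC-INHIB and from 31 to 94 for ENZ-INHIB against DNC-NONE.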
